A study of Mus musculus with 8 samples.

Results

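The data describe 10 genes that move iron and haem through the cell, measured in mouse dendritic cells: Tfrc, Slc11a1, Slc11a2, Slc40a1, Fth1, Ftl1, Hmox1, Ireb2, Aco1 and Steap3. They were chosen by name, and each gene was read from the probe set that carried its symbol alone. Of the 10 genes, 9 had such a probe set, out of 22180 genes with one on the array. All 9 lay above the intensity filter and were tested, among 12668 probe sets in all. Ftl1, the light chain of ferritin, was on 6 probe sets that it shares with its pseudogenes and on none of its own, so no value is given for it.

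The cells were wild-type, taken from female C57BL/6 mice and grown from bone marrow for 7 days in 21% oxygen with 20 ng/ml GM-CSF. After selection on CD11c beads to about 98% purity they were moved to 2% oxygen, near 14 mmHg, with GM-CSF for 2 days. For the last 6 hours they either stayed in medium or received 100 ng/ml of SCF (stem cell factor), which binds the receptor tyrosine kinase Kit. The 4 experiments, named BC, D2, E and I, each supplied 1 medium array and 1 SCF array, so that there were 4 pairs. GM-CSF and low oxygen were common to both groups, and neither a normoxic culture nor one without GM-CSF was analysed here. The labels do not give the age of the mice or say how many were used for a preparation.

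Iron bound to transferrin enters cells through the transferrin receptor, is reduced in the endosome by a Steap ferrireductase and crosses into the cytosol through a divalent metal transporter. In the cytosol it is used, stored in ferritin or exported by ferroportin, while haem oxygenase frees further iron from haem. Many of these messages carry iron-responsive elements, to which the iron regulatory proteins bind when iron is scarce, so that the translation or stability of the message changes. Myeloid cells are known for taking up, recycling and withholding iron, and low oxygen is known to act on several of these genes through hypoxia-inducible factors.

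The promoter of the transferrin receptor gene holds a match to the core of the short element through which those factors act, which is why it is printed here. Whether this site is bound or used in these cells was not tested. Windows of 250 bases before to 50 after a gene start, from RefSeq (GRCm38.p6), were found for 7 of the 10 genes, with 12 windows in all. The core of the hypoxia response element was searched as ACGTG alone, on either strand. ACGTG was in both windows of Tfrc and in no window of the other 6 genes. It occurred in 19.6% of all 32851 windows of this length. Other forms of the core were not searched, so the other 6 genes are not shown to lack the element. Both Tfrc matches were the same site on the plus strand, within the stretch printed here at chr16:32608881-32608910 (GRCm38.p6). The core begins 2 bases before one annotated start and 228 before the other. The capitals mark the core.

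Tfrc promoter: cctcggtaggtgtACGTGcggaaggaagtg

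The core of the antioxidant response element, TGACNNNGC on either strand, was in 0 of the 12 windows and in 12.4% of all windows. Sequence outside these windows was not searched for either element. No windows were available for Hmox1, Slc11a2 and Slc40a1.

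The arrays resembled each other closely, with median intensities between 13.3 and 13.9 on the linear scale and Pearson's r between any pair of arrays from 0.990 to 0.995. All 9 dendritic cell markers on the array lay above the filter, with mean log2 intensities from 5.52 to 11.01. Itgax, the gene of CD11c, stood at 10.05. Of the red cell precursor markers, 0 of 6 lay above the filter (mean log2 intensity from 3.29 to 3.84), and the same held for 0 of 5 T and NK cell markers. Above it were 2 of 8 neutrophil, 1 of 7 mast cell and 1 of 4 B cell markers. Macrophage markers, many of which cultured dendritic cells also express, were above it in 8 of 10 cases. Their mean log2 intensities ran from 3.68 to 9.66, and these values do not tell whether the cultures also held macrophages. In whole-culture RNA, fewer cells of a type and less RNA per cell cannot be told apart.

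None of the 9 iron and haem genes passed the test of SCF against medium. The comparison asked which transcripts these hypoxic cells altered within 6 hours of SCF, by limma with the experiment as a block and Benjamini-Hochberg adjustment over all probe sets tested. Across the array 0 of 12668 probe sets passed (0%), and a plain paired test also called 0. Among the members the adjusted p lay between 0.945 and 0.996. At an unadjusted p of 0.05 the members contributed 1 gene, Ireb2, where 4.21% of all probe sets tested lay under that value. Fitted differences were below 0 for 8 of the 9 genes, with a median log2 difference of −0.05, against 49.5% of all probe sets and a median of 0.00077. The count was 9 of 9 with the array medians equalized, 4 of 9 without experiment BC, and 7 or 8 of 9 without any other 1 experiment. The medium and SCF arrays overlapped for every one of the 9 genes, and for all but 0.971% of the probe sets tested. For all 9, the 95% interval of the difference lay within 1.5-fold in both directions, as it did for 99.7% of the probe sets tested.

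**Figure D1:**
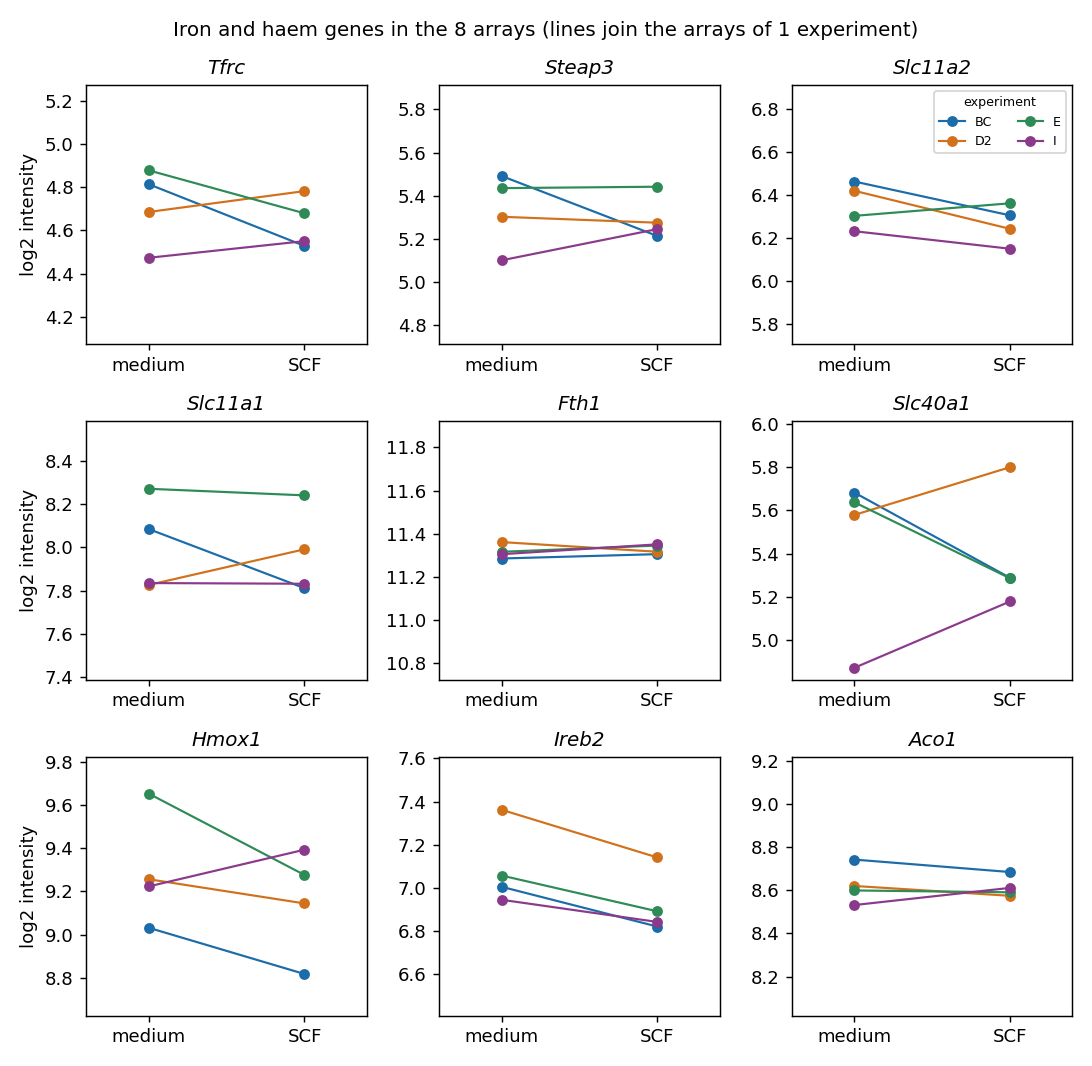
Log2 intensity (vertical axis, the same width in every panel) of the 9 measured genes in medium and with SCF, with each line joining the 2 arrays of an experiment. Ireb2 lines slope down in all 4 experiments, Fth1 lines lie on top of each other between 11.29 and 11.36, and Slc40a1 lines run in both directions.

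Uptake genes come first. Tfrc encodes the transferrin receptor (probe set 17324835). In medium its log2 intensity in experiments BC, D2, E and I, an order kept below, was 4.81, 4.69, 4.88 and 4.47, and with SCF it was 4.53, 4.78, 4.68 and 4.55. BC and E were lower with SCF, D2 and I were higher, and the groups overlapped over most of their range. The group means were 4.71 ± 0.18 (SD, n = 4) in medium and 4.64 ± 0.12 with SCF. The fitted log2 difference of Tfrc was −0.08 (SE 0.08, 95% interval −0.26 to 0.11, limma adjusted p = 0.949), and it ranged from −0.14 without D2 to −0.0084 without BC. These values lie near the dim end of the genes tested, whose filter was at 4.05.

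Steap3 encodes the endosomal ferrireductase that works beside the transferrin receptor (probe set 17226313). Its log2 intensity in medium was 5.49, 5.30, 5.44 and 5.10, and with SCF 5.21, 5.28, 5.44 and 5.25. BC differed by −0.28 with SCF, experiments D2 and E lay within 0.03 of 0, and I differed by 0.14. The fitted difference was −0.04 (SE 0.07, 95% interval −0.21 to 0.13, limma adjusted p = 0.977) and turned to 0.04 without BC.

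Slc11a2 encodes the divalent metal transporter that carries endosomal iron into the cytosol (probe set 17321683). Its medium arrays read 6.46, 6.42, 6.30 and 6.23, and its SCF arrays 6.31, 6.24, 6.36 and 6.15. It was lower with SCF in 3 experiments and higher in E. The fitted difference was −0.09 (SE 0.06, 95% interval −0.23 to 0.05, limma adjusted p = 0.945), and it kept its sign without any 1 experiment, from −0.14 without E to −0.06 without D2.

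Slc11a1 is the related transporter of the phagosome and lysosome membrane, long studied for its part in resistance to intracellular bacteria (probe set 17214197). In medium it stood at 8.09, 7.83, 8.27 and 7.84, and with SCF at 7.81, 7.99, 8.24 and 7.83. The paired differences went from −0.27 in BC to 0.17 in D2, while E and I were close to 0. The fitted difference was −0.04 (SE 0.08, 95% interval −0.21 to 0.14, limma adjusted p = 0.978), and turned to 0.04 without BC.

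For storage, Fth1, the heavy chain of ferritin with the ferroxidase activity that loads iron into the shell, was brighter than 99.98% of the probe sets that carry a symbol (probe set 17357418). Its log2 intensity in medium was 11.29, 11.36, 11.32 and 11.31, and with SCF 11.31, 11.32, 11.35 and 11.35. All 8 arrays lay within this narrow band, and the SD was 0.03 in medium and 0.02 with SCF (n = 4 each). On the linear scale Fth1 read 2496 to 2632, and the brightest value of an array ran from 3588 to 4252. Whether signal this near the top is compressed, which would narrow the band, was not tested. The fitted difference of Fth1 was 0.01 (SE 0.05, 95% interval −0.10 to 0.13, limma adjusted p = 0.991), or −0.0067 with the array medians equalized. Probes for such a gene can also bind messages of near-identical pseudogenes, so the value is that of the probe set.

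The export gene Slc40a1 encodes ferroportin, the only known iron exporter of mammalian cells (probe set 17222777). Its medium arrays read 5.68, 5.58, 5.64 and 4.87. With SCF they read 5.29, 5.80, 5.29 and 5.18. SCF was lower in BC (−0.40) and E (−0.35) and higher in D2 (0.22) and I (0.31), the widest disagreement between experiments among the 9 genes (SD of the differences 0.37). The fitted difference was −0.05 (SE 0.13, 95% interval −0.35 to 0.24, limma adjusted p = 0.980). Its sign turned to 0.06 without BC and to 0.04 without E, and it was −0.18 without I.

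Hmox1 encodes the inducible haem oxygenase, which opens haem and releases its iron (probe set 17502573). Log2 intensity in medium was 9.03, 9.26, 9.65 and 9.22, and with SCF 8.82, 9.14, 9.28 and 9.39. It was lower with SCF in BC, D2 and E, with differences of −0.38 to −0.11, and higher in I, at 0.17. The fitted log2 difference of Hmox1 was −0.13 (SE 0.09, 95% interval −0.34 to 0.07, limma adjusted p = 0.945). That value was −0.05 without E and −0.23 without I.

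Of the regulators, Ireb2 encodes iron regulatory protein 2, whose level is set by iron- and oxygen-dependent degradation (probe set 17517424). In medium it stood at 7.01, 7.36, 7.06 and 6.95, and with SCF at 6.82, 7.14, 6.89 and 6.84. SCF was lower in all 4 experiments, with differences of −0.18, −0.22, −0.17 and −0.10 in turn. Ireb2 was the only member lower in all 4, as 6.44% of all probe sets tested were, and 0 members were higher in all 4. The groups still overlapped, since the D2 array with SCF read above 3 of the medium arrays. The fitted difference was −0.17 (SE 0.05, 95% interval −0.29 to −0.05), a ratio of 0.890 with an interval from 0.820 to 0.966. It did not pass the adjustment (limma adjusted p = 0.945). Without any 1 experiment the difference stayed between −0.19 and −0.15.

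Aco1 encodes iron regulatory protein 1, which is the cytosolic aconitase when it holds an iron-sulphur cluster (probe set 17412730). Its medium arrays read 8.74, 8.62, 8.60 and 8.53, and its SCF arrays 8.68, 8.57, 8.59 and 8.61. No pair differed by more than 0.08. The fitted difference was −0.0080 (SE 0.05, 95% interval −0.13 to 0.11, limma adjusted p = 0.996), and it turned to 0.0085 without BC and to 0.0045 without D2.

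**Figure D2:**
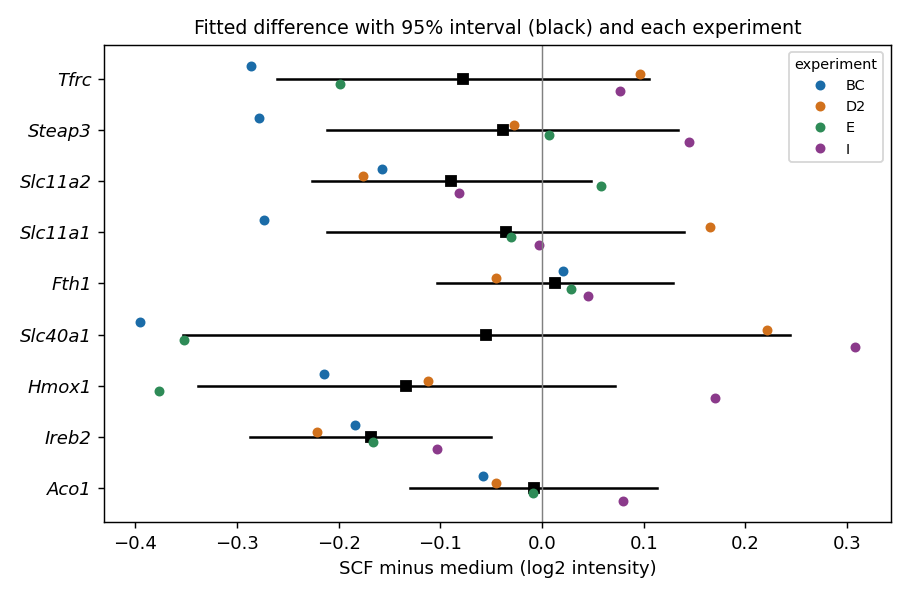
SCF minus medium on the log2 scale (horizontal axis) for the 9 genes, with the fitted difference and its 95% interval in black and the 4 experiments as coloured dots. Only the Ireb2 interval, from −0.29 to −0.05, leaves out 0, before any adjustment for the number of probe sets.

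Read by experiment, the number of the 9 genes below 0 ranged from 3 to 8. In BC 8 of the 9 were lower with SCF, with a median difference of −0.21, while 52.1% of all probe sets tested were lower and their median was −0.0075. In D2 and in E 6 of the 9 were lower, with medians of −0.04 and −0.03. In I 3 of the 9 were lower, and the median was 0.08. The mean over the 10 macrophage markers also differed between the arrays of BC, by −0.09 with SCF, against 0.05 for D2 and −0.03 for both E and I, and its part in the members' differences was not tested. Without BC, the fitted differences of Slc11a1, Slc40a1, Steap3 and Aco1 changed sign.

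Levels were also compared between the separately run experiments. Experiment means over both arrays spanned 0.66 on the log2 scale for Slc40a1, from 5.03 in I to 5.69 in D2, and 0.54 for Hmox1, from 8.93 in BC to 9.47 in E. The low Slc40a1 mean of I rests in part on its medium array, at 4.87, which is flagged below. The SCF array of I read 5.18. The span was 0.42 for Slc11a1, highest in E at 8.26, and 0.36 for Ireb2, highest in D2 at 7.25. Spans of 0.27 for Tfrc and Steap3, 0.19 for Slc11a2 and 0.14 for Aco1 followed, and Fth1 spanned 0.04. The median span was 0.27 over the 9 genes and 0.20 over all probe sets tested. Wider spans than that of Slc40a1 were found in 2.16% of the probe sets tested, wider ones than that of Hmox1 in 4.29%, and wider ones than that of Fth1 in 98.4%.

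By limma's F test over the 4 experiments, 0 of the 9 genes passed, where 424 probe sets, or 3.35%, did. The smallest adjusted p were 0.0747 for Ireb2, 0.124 for Hmox1, 0.137 for Slc11a1 and 0.180 for Slc40a1. With a variance trend, Ireb2 (limma adjusted p = 0.0293), Hmox1 (0.0258) and Slc11a1 (0.0405) passed, and so did 12.1% of all probe sets tested. The same 3 genes passed with the stricter intensity filter, where 22.0% of the probe sets left did. The Ireb2 arrays kept the same order in both groups for D2, E and BC, from high to low, and D2 was the highest in each. Of the macrophage markers above the filter, 2 of 8 passed the same test. The mean over the macrophage list was 6.33 in E, where Hmox1 and Slc11a1 were highest, and 6.12 to 6.15 in the other 3 experiments. The list was not uniform. Adgre1, Mertk, Fcgr1, C1qa, C1qb and Cd68 were highest in E, Cd163, Marco and Vcam1 in BC, and Spic in I. Fcgr1, a high-affinity Fc receptor gene, spanned 1.02 (limma adjusted p = 0.0360) and the complement gene C1qb 0.72 (limma adjusted p = 0.0428). Of the other marker lists, the mast cell gene Cpa3 passed, highest in BC and spanning 1.01 (limma adjusted p = 0.0333), as did Lcn2, which is also a neutrophil marker and was highest in E. The mean over the mast cell list was 3.00 to 3.17 and over the neutrophil list 3.57 to 3.66 across the experiments. The part of these markers in the members' differences was not tested.

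**Figure D3:**
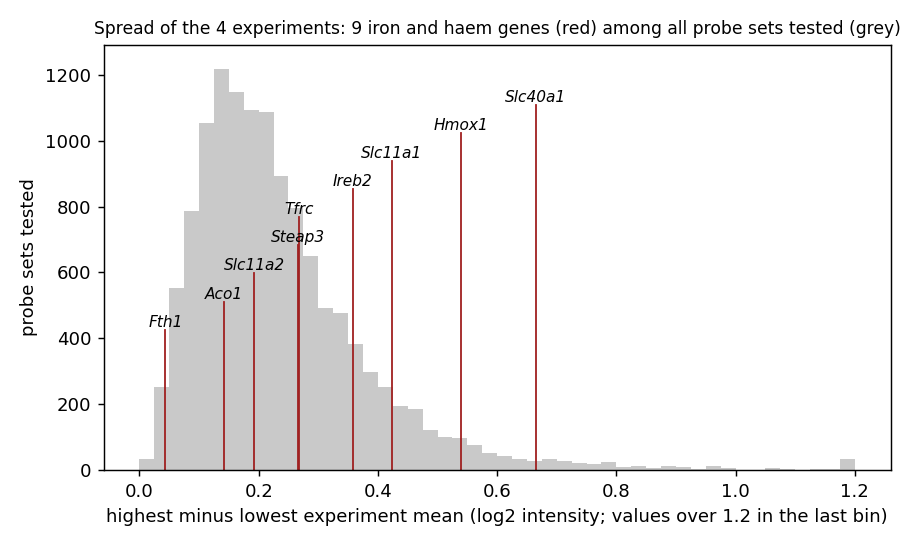
Highest minus lowest experiment mean on the log2 scale (horizontal axis) for all 12668 probe sets tested (grey counts, vertical axis), with the 9 genes marked in red. Slc40a1 at 0.66 and Hmox1 at 0.54 lie in the upper tail, and Fth1 at 0.04 lies at the lower end.

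Genes whose levels followed those of 3 members most closely over the 8 arrays were picked by Pearson's r among 11350 other genes. The 8 arrays are 4 pairs that share their cells. The highest r of so many genes over 8 arrays can be high by chance, and shared control was not tested. For Tfrc these were Pola1 (r = 0.975), a DNA polymerase subunit gene, the lectin receptor gene Clec4a2 (0.975) and the vesicle fusion gene Ykt6 (0.975). For Hmox1 they were Dipk2a (r = 0.976), the glycosyltransferase gene B3gnt2 (0.968) and the heparanase gene Hpse (0.958). For Slc40a1 they were the arginine methyltransferase gene Prmt9 (r = 0.975), the microRNA-processing gene Dicer1 (0.973) and the DNA repair family gene Ercc6l2 (0.970). None of these 9 is another iron or haem gene of the lists used here.

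Beyond the members, 111 further genes of iron and haem biology were listed in 7 groups. On the array 100 of them had a probe set of their own, and 77 lay above the filter. None of the 77 passed (limma, smallest adjusted p = 0.945), and the median log2 difference was −0.01. Of the 77, 4 (5.20%) had an unadjusted p under 0.05, where 4.21% of all probe sets did. Fitted differences were above 0 for 33 and below 0 for 44, or for 52 with the array medians equalized, which moved the median of all probe sets to −0.02.

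Of 10 tested genes of the transferrin cycle, ferrireduction and metal import, 3 were above 0 and 7 below (median −0.02). Without D2, 5 of 10 were below 0 and the median was 0.0020. Exoc6, an exocyst subunit gene known for its part in transferrin recycling, differed by −0.16 (SE 0.06) and was below 0 in all 4 experiments. Slc39a8, a metal importer gene, differed by −0.16 (SE 0.06) and the retromer gene Vps35 by −0.11 (SE 0.05), each also below 0 in all 4. Of all probe sets tested, 6.44% were below 0 in all 4. Genes are named here for the smallest unadjusted p of their list, which favours agreement between the experiments. Of the ferritin loading and ferritinophagy genes, 6 of 7 were above 0, with a median of 0.06, where 49.5% of all probe sets tested were below 0. Among them Bola2, a partner in cytosolic iron-sulphur handling, was at 0.13 (SE 0.05). Ncoa4, the receptor that delivers ferritin to autophagosomes, was at 0.08 (SE 0.05), and Herc2, a ubiquitin ligase gene that acts on it, at 0.08 (SE 0.05). Bola2, Ncoa4 and Herc2 were each above 0 in all 4 experiments. The share of all probe sets above 0 in all 4 was not counted, so this agreement has no background beside it.

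The genes of export, the hepcidin axis and siderophores were mostly dim, with 4 of 13 above the filter. Lcn2, which binds bacterial siderophores, was at 0.12 (SE 0.05) and above 0 in all 4 experiments. The Lcn2 mean was under the filter in medium (3.99) and above it with SCF (4.11). Lcn2 was thus tested through the group where it was higher. Its receptor gene Slc22a17 was at −0.16 (SE 0.13) and the BMP co-receptor gene Hjv at −0.08 (SE 0.07). Of 23 tested genes of IRP control and iron-sulphur assembly, 12 were above 0 and 11 below (median 0.00077), or 15 below with the array medians equalized and 16 below without D2 (medians −0.02 in both). The cluster scaffold gene Nfu1 was at −0.10 (SE 0.05) and below 0 in all 4 experiments. The cytosolic assembly genes Mms19 and Ciao2b were at 0.12 (SE 0.06) and 0.13 (SE 0.07). Across experiments 2 of the 77 related genes passed the F test, which is 2.60% of them. Over all probe sets that share was 3.35%. The genes were Nfu1, which spanned 0.46 (limma adjusted p = 0.0488), and Lcn2, which spanned 0.66 (0.0271) but lay above the filter in E alone (4.43, against 3.78 to 4.00 in the other 3 experiments), so that E decided both its entry and its call.

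For haem synthesis all 12 genes on the array lay above the filter, and 4 were above 0 and 8 below (median −0.01). Without BC 6 of 12 were below 0 (median 0.0072), and with the stricter filter 3 of 7 (median 0.01). Clpx, whose product activates the first enzyme of the pathway, was at −0.12 (SE 0.06), the ferrochelatase gene Fech at 0.03 (SE 0.05) and Alas1, the gene of that first enzyme, at −0.02 (SE 0.06). Among 10 genes of haem transport and breakdown, 5 lay on each side of 0 (median −0.0013). With the array medians equalized 7 of 10 were below 0 (median −0.02), and with the stricter filter 1 of 6 (median 0.03). The haem-scavenging hemopexin gene Hpx was at −0.07 (SE 0.06). Its mean was above the filter of 4.0499 in medium (4.119) and just under it with SCF (4.049). Hpx was thus tested through the group where it was higher. The biliverdin reductase gene Blvra was at −0.06 (SE 0.05) and below 0 in all 4 experiments. The haem-binding protein gene Pgrmc1 was at −0.06 (SE 0.06). Of 11 transcription factor genes known to act on iron and haem genes, 10 were below 0 (median −0.06), where 49.5% of all probe sets tested were. The count was 8 of 11 without D2 or without E, and 9 without BC or without I. Medians then lay between −0.06 and −0.04, and the median in experiment I alone was 0.0050. Mitf, of the family that drives lysosome genes, was at −0.13 (SE 0.06) and below 0 in all 4 experiments. Nfe2l2, the gene of the antioxidant factor Nrf2, was at −0.10 (SE 0.07) and its partner gene Mafk at −0.07 (SE 0.06).

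**Figure D4:**
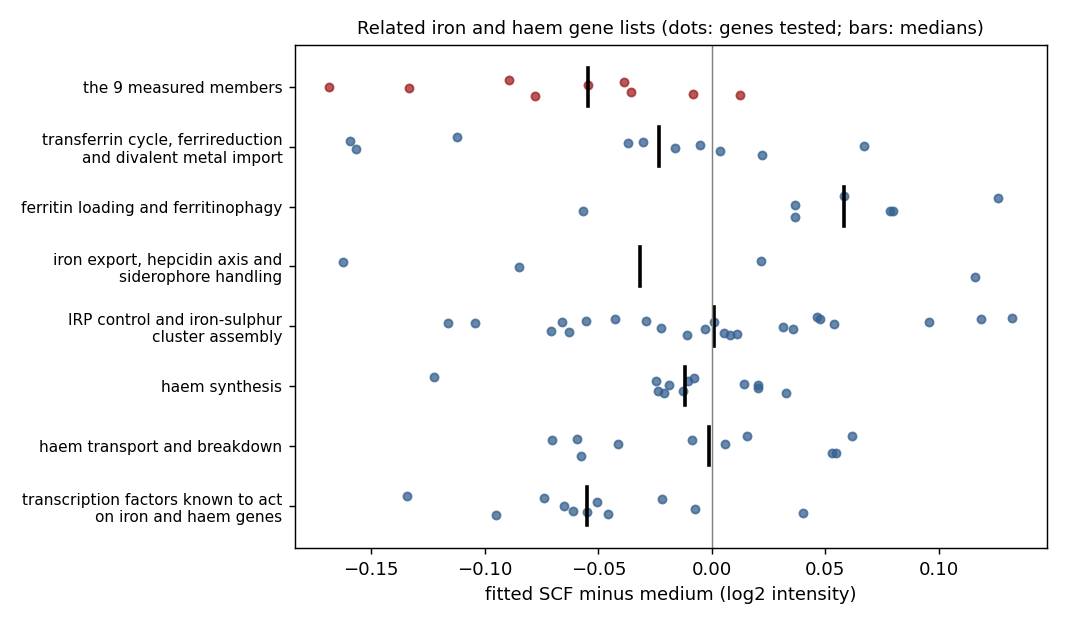
Fitted SCF minus medium on the log2 scale (horizontal axis) for the 9 measured members (red) and the tested genes of the 7 related lists (blue), with black bars at the medians. Medians lie between −0.06 and 0.06, and no gene in the plot passed the adjusted threshold.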

How the data were processed

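RNA from 8 cultures was hybridised to 8 Affymetrix whole-transcript arrays, 4 per group, which limits the precision. Per the submitters' processing notes, the authors produced the intensities by RMA (version not given in the sources used here). Values as deposited were linear, so log2 was taken, with no further normalization. They carry no detection call, so probe sets with a symbol (23521 with 1, 1814 with several, 16010 unnamed here) were tested where their mean log2 intensity reached the median of those means, 4.05. A gene with several probe sets was read from the brightest.

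The series' design text states that both cultures of an experiment came from the same cells. After removal of group means, arrays of an experiment correlated at 0.46 (BC), 0.41 (D2), 0.42 (E) and 0.36 (I). The pairs were therefore fitted as a block with limma 3.58.1 (lmFit, eBayes, two-sided, Benjamini-Hochberg threshold 0.05) in R 4.3.3, with an F test over the experiments from the same fit, which was tested on simulated data. Residual degrees of freedom were 3, which the prior raised to 7.39. Intervals are unadjusted.

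The members and lists were chosen with earlier results of these data known. All members were named, with the up to 3 genes of the smallest unadjusted p per list and the 3 genes most like Tfrc, Hmox1 and Slc40a1. Marker genes named for their span, and the 1.5-fold bound set beside the intervals, were chosen after values were seen.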

Additional observations from a re-analysis of the deposited data

Results flagged for a closer look

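In medium, the Slc40a1 array of experiment I stood at a log2 intensity of 4.871, far from the other 3 medium arrays, which lay between 5.58 and 5.68. It was the lowest of the group, with a gap to the nearest array of 0.87 of the group's range, above Dixon's 95% critical value for 4 samples. The SCF array of the same experiment was also the lowest of its group, at 5.18. Without experiment I the fitted difference of Slc40a1 was −0.18 in place of −0.05. Of 18 groups examined in this way, 1 stood out, and chance alone gives about 1 in 20.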

How the results depend on the processing

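Of 123 refits of the 9 members' SCF differences under 14 alternatives, 0 passed (adjusted p from 0.686 to 1), and 7 changed sign. Only a new normalization of the arrays or the loss of 1 experiment could change these signs. The alternatives of filter, probe set averaging, block, prior or test left each member's fitted difference as it was, so many of the refits could not turn. Fth1 turned to −0.0067 with the array medians equalized, which moved the median of all probe sets to −0.02. The other 6 came from leaving out 1 experiment, with ranges of −0.037 to 0.0085 for Aco1, −0.10 to 0.044 for Slc11a1, −0.18 to 0.059 for Slc40a1 and −0.10 to 0.041 for Steap3. The fit with no replicate block and the one with experiment as a random block each called 0 probe sets, as did the other 12 alternatives, and the block changed no call. Probe sets that differed among experiments numbered 424, but 194 with no intensity filter, 1396 with the stricter one, 1527 with a variance trend and 38 to 177 without 1 experiment, which leaves fewer arrays. Of 96 refits of the members' experiment differences, 6 passed where the main one did not, for Ireb2, Hmox1 and Slc11a1. Of 97 refits of list medians, 2, both for haem synthesis, moved by more than the SD of that median over the 4 experiments. The alternatives of block, prior or test could not move a list median. The sign changed in 14, of which 5 were for IRP control, 3 each for export and for haem transport, 2 for haem synthesis, 1 for the transferrin cycle and 0 for the other 2 lists. The stricter filter left out Tfrc, Slc40a1 and Steap3. Signal over background is unknown.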
